A study of Mus musculus with 8 samples.

Results

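The genes described here are 8 growth factor signal genes of pigment cells: the receptor gene Kit and its ligand gene Kitl, the endothelin receptor genes Ednrb and Ednra with the ligand genes Edn1 and Edn3, the melanocortin receptor gene Mc1r, and Met, the receptor of hepatocyte growth factor. They were found by symbol among the 54418 genes of the deposited tables, each under 1 Ensembl identifier. The rule that names them uses no values, but the members were chosen with earlier results of these data known. The study sequenced RNA from melanocyte stem cells, which renew the pigment cells of the hair follicle, from dorsal skin of mice of mixed C57Bl-6;129Sv strain at postnatal day 21. All mice carried floxed Bmi1 (Bmi1fl/fl), Dct-rtTA and TRE-H2B-GFP and were fed doxycycline, so that a histone-GFP reporter marked cells in which Dct, an enzyme gene of melanin synthesis, drove the transactivator. The 4 Bmi1-deleted libraries came from mice that also carried Tyrosinase-Cre, a recombinase driven through a pigment gene, and the 4 control libraries from mice without Cre. Live, non-autofluorescent, GFP-positive cells were sorted, so Dct belongs to the sort itself. The question behind the comparison was what becomes of this RNA once Bmi1, which belongs to a silencing Polycomb complex, is gone.

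Kit is a receptor tyrosine kinase whose ligand, made by keratinocytes and dermal cells, is needed for melanoblasts to survive and migrate. Ednrb is a G protein-coupled receptor that binds all endothelins; its ligand Edn3 supports the growth of early melanoblasts, while Ednra is known mainly from vascular and mesenchymal cells. Mc1r raises cyclic AMP and sets the switch between black and yellow pigment, and Met is another receptor tyrosine kinase of the lineage. Mitf, the master regulator of melanocytes, is known to act on several of these receptor genes.

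Libraries held 8882656 to 10368174 counts. Dct stood at 3798, 4020.1, 5718 and 6451 CPM (counts scaled to library size, with TMM factors between libraries) in control libraries 1 to 4 and at 2092, 1966, 4086 and 4734 CPM in Bmi1-deleted libraries 1 to 4. Within each group Dct was lower in replicates 1 and 2 than in 3 and 4. The summed level of 17 fibroblast markers ran from 5128 to 8852 CPM in control and from 8744 to 18557 CPM in Bmi1-deleted libraries, with the highest sums in Bmi1-deleted 1 and 2. All 15 melanocyte markers had counts in every library, so RNA of pigment cells was present throughout. Whether it came from stem cells was not tested. Whole-gene counts of Bmi1, which include reads outside any deleted part, were at 83.4% of control (83.4 ± 10.0 and 69.6 ± 0.88 CPM, SD, n = 4). In CPM the groups did not overlap, as for 5.18% of all tested genes. The log2 change of −0.26 did not pass (edgeR adjusted p = 0.607, or 0.435 with the replicate number as a block). On the deposited TPM, whose limit is given below, Bmi1 had 30.4 ± 6.14 and 13.4 ± 4.84, also without overlap. The share of all genes without overlap on TPM was not counted, and the median log2 TPM change of all tested genes was −0.14. No label says that replicates came from separate animals, so p-values measure the spread between these samples, which may be technical. In bulk RNA, fewer cells of a type and less RNA per cell cannot be told apart.

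The 4 receptors Kit, Ednrb, Met and Mc1r all stood lower on average in Bmi1-deleted libraries, Kitl had nearly equal means, and the endothelin ligands and Ednra were low, with 0 to 84 counts in a library. With edgeR's quasi-likelihood test over 16011 genes, 0 of the 7 members with enough counts to be tested passed an adjusted p of 0.05. Edn3 was not tested. Of all tested genes 0.0937% passed, 0.0874% higher and 0.00625% lower. At an unadjusted p under 0.05 there were 4 members, all lower, against 8.27% of all genes, and DESeq2 called 3 members, all lower, namely Ednrb (adjusted p = 0.0016), Mc1r (0.0198) and Met (0.0297), against 1.03% of the genes it tested (0.312% lower). No label gives a pairing, but libraries of equal replicate number were taken as pairs. With the number as a block Kit, Ednrb and Met fell, 3 of 7 members, where 0.706% of all tested genes fell and 1.71% rose. The median log2 change of the 7 tested members was −0.57, beside 0.01 for all tested genes.

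**Figure D1:**
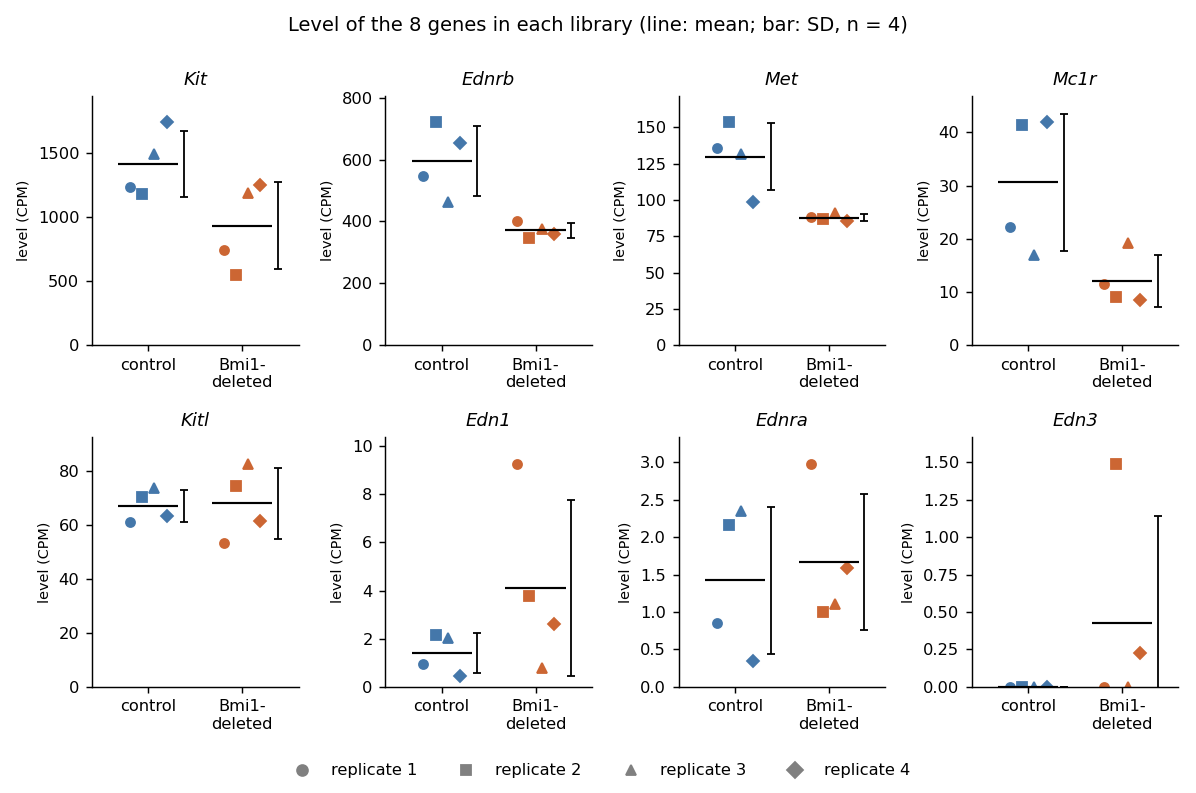
Level of each of the 8 genes in CPM (vertical axes, each from 0) in the 4 control (blue) and 4 Bmi1-deleted (orange) libraries; marker shapes are replicate numbers, lines are means and bars are SDs, which are not drawn below 0. Ednrb and Met are separated between the groups (462 to 720.2 against 348 to 401 CPM for Ednrb), whereas Kit, Mc1r and Kitl overlap.

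Levels of different genes can be compared only after correction for length, so the deposited TPM (transcript abundance corrected for length and scaled to a fixed total per library) were used for their order. Most of each library's TPM, 73.7% to 85.6%, belonged to the predicted gene Gm23935, which lowers the TPM of all other genes alike within a library but leaves their order. Its share differed between libraries, so TPM serve here for the order of genes, and any comparison of the groups on TPM carries that limit. Kit had the highest TPM of the 8 genes in all 8 libraries, 135.5 ± 18.6 (SD, n = 4) with Bmi1 and 85.0 ± 33.1 without it. In control libraries it stood above 99.2% of tested genes. Ednrb followed with 54.2 ± 22.3 and 27.7 ± 3.56 TPM, below Kit and above Kitl in every library. Kitl, at 14.8 ± 4.49 and 13 ± 4.26 TPM, was above Met (8.90 ± 4.07 and 5.27 ± 1.69) in each single library, although their control ranges overlapped. Mc1r had 2.86 ± 1.66 TPM in control, near the middle of the tested genes (above 49.0% of them), and 0.930 ± 0.428 in Bmi1-deleted libraries. Its control range overlapped that of Met. Edn1 (0.246 ± 0.183 and 0.563 ± 0.532 TPM) and Ednra (0.141 ± 0.110 and 0.128 ± 0.0758 TPM) overlapped each other in both groups.

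**Figure D2:**
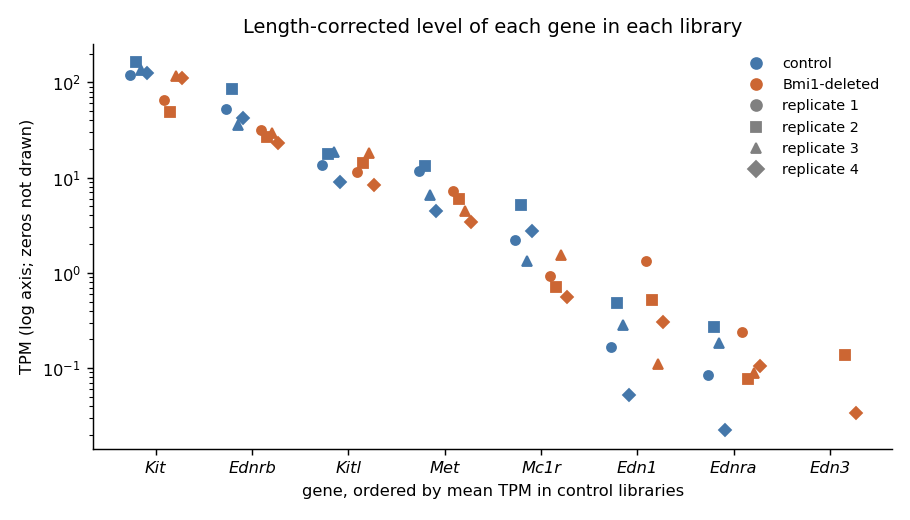
TPM of each gene (log axis; zeros are not drawn) in each library, control in blue and Bmi1-deleted in orange, ordered by mean control TPM, with marker shapes for replicate numbers. Kit, with a control mean of 135.5 TPM, leads in all 8 libraries, and Edn3 appears in only 2.

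Kit (ENSMUSG00000005672, mm10 chromosome 5, 75574916 to 75656722, plus strand, up to 21 exons) had 1239, 1184, 1494 and 1740.4 CPM in control libraries 1 to 4. In Bmi1-deleted libraries 1 to 4 it had 747, 551, 1185 and 1254 CPM. Bmi1-deleted 1 and 2 were below every control library, while 3 and 4 lay at the level of the lowest controls, so the groups overlapped in CPM. On the deposited TPM, which move with the share of Gm23935, the Kit groups did not overlap (120.1 to 161.7 against 48.4 to 115 TPM, exact two-sided permutation p = 0.0286). How many of all genes do so on TPM was not counted. Ednrb, Dct and Mitf had the same permutation p on TPM as Kit. The median log2 TPM change of all tested genes was −0.14. Means were 1414 ± 256 and 934.5 ± 339.9 CPM, 66.1% of control (log2 change −0.60, SE 0.25, adjusted p = 0.561 by edgeR; exact two-sided permutation p = 0.143). The Bmi1-deleted library was the lower one in 4 of 4 pairs of equal replicate number, and Kit fell with the replicate block (−0.66, SE 0.12, adjusted p = 0.00595). Blocked fits that left out 1 pair each passed in 3 of 4 cases, not without replicate 2 (adjusted p = 0.0632). With the mean level of the fibroblast markers as a covariate the change was −0.17 (adjusted p = 0.828), and with the covariate and the block it was −0.59 (adjusted p = 0.336).

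Kitl (ENSMUSG00000019966, chromosome 10, 100015630 to 100100416), the ligand gene of Kit, had 61.3, 70.4, 73.9 and 63.4 CPM in control and 53.4, 74.6, 82.8 and 61.5 CPM in Bmi1-deleted libraries. The Bmi1-deleted values lay on both sides of the control range. The log2 change was 0.02 (95% interval −0.31 to 0.35, adjusted p = 0.989 by edgeR), and that of the blocked fit was 0.00. Per library Kitl reached 7.14 to 13.9 TPM per 100 TPM of Kit in control and 7.46 to 29.3 in Bmi1-deleted libraries, highest in Bmi1-deleted 2, the library with the lowest Kit.

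Ednrb (ENSMUSG00000022122, chromosome 14, 103814625 to 103844402, minus strand) was the member with the smallest p. Control libraries 1 to 4 had 546, 720.2, 462 and 652 CPM, and Bmi1-deleted libraries had 401, 348, 375 and 360.1 CPM. All Bmi1-deleted libraries lay below all controls and close together, with means of 595 ± 114 and 371 ± 23.1 CPM, 62.3% of control (two-sided exact permutation p = 0.0286, the lowest value possible with 70 assignments). Of all tested genes 5.18% had groups that did not overlap, 2.39% lower and 2.79% higher after deletion, and among the members these were Ednrb and Met, both lower. The log2 change was −0.68 (SE 0.14, 95% interval −0.99 to −0.38), which missed the threshold (edgeR adjusted p = 0.0997; 0.0734 to 0.311 with each library left out). Ednrb fell with the replicate block (−0.66, adjusted p = 0.00687), but not without replicate 2 (adjusted p = 0.1) or 4 (adjusted p = 0.0705). With the fibroblast covariate the change was −0.77 (adjusted p = 0.126), and with the covariate and the block −0.99 (adjusted p = 0.05), while the change of Kit was smaller with the covariate than without it. The difference between the genes was not tested.

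The other endothelin genes were sparse. Ednra (ENSMUSG00000031616, chromosome 8, 77663031 to 77724464), the receptor of vessel walls and mesenchyme, had 8, 21, 22 and 3 counts in control and 27, 10, 10 and 14 in Bmi1-deleted libraries. Its groups overlapped throughout (log2 change 0.22, 95% interval −1.5 to 1.94, edgeR adjusted p = 0.981), and there were at most 0.763 TPM of Ednra per 100 TPM of Ednrb in any library. A non-coding gene on the opposite strand spans the whole of Ednra, and whether counting used strand is unknown here. Edn1 (ENSMUSG00000021367, chromosome 13, 42301476 to 42307990), an endothelin of vessels and keratinocytes, had 9, 21, 19 and 4 counts in control and 84, 38, 7 and 23 in Bmi1-deleted libraries. In 3 of the latter libraries the count exceeded all controls, and in Bmi1-deleted 3 it did not (log2 change 1.54, SE 0.76, adjusted p = 0.633 by edgeR). Without Bmi1-deleted 1 the change was 0.76 (adjusted p = 0.972), and with the fibroblast covariate it was 0.63. Bmi1-deleted 1 also had the highest sum of 12 endothelial markers, 123.2 CPM, against 20.5 to 45.0 CPM in control and 33.5 to 60.6 CPM in the other Bmi1-deleted libraries. The part of those markers in the Edn1 counts was not tested. Edn3 (ENSMUSG00000027524, chromosome 2, 174760619 to 174784042), the endothelin of melanoblast growth, had 0 counts in all 4 control libraries and 0, 15, 0 and 2 in Bmi1-deleted libraries. A count of 0 allows up to 3 counts, 0.289 to 0.338 CPM in these libraries, so in 6 of 8 libraries Edn3 was not detectable at this depth.

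Mc1r (ENSMUSG00000074037, chromosome 8, 123407107 to 123410744, plus strand, 1 annotated exon) was the receptor with the largest fitted difference. It had 22.2, 41.4, 17.0 and 41.9 CPM in control libraries 1 to 4 and 11.5, 9.14, 19.2 and 8.50 CPM in Bmi1-deleted libraries. Bmi1-deleted 3 exceeded control 3, the lowest control, and the other Bmi1-deleted libraries were below every control. The mean went from 30.6 ± 12.9 to 12.1 ± 4.93 CPM, 39.5% of control (log2 change −1.34, SE 0.34, edgeR adjusted p = 0.239; exact two-sided permutation p = 0.0571). With the block it did not pass (−1.32, SE 0.42, adjusted p = 0.233), except when replicate 3 was left out (−1.82, adjusted p = 0.00428). The fibroblast covariate gave −1.51 (adjusted p = 0.314) without the block and −2.45 (adjusted p = 0.123) with it. The spread of Mc1r among control libraries was the widest of the 4 receptors relative to the mean. An overlapping predicted gene model on the opposite strand had 0 to 12 counts per library.

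The start regions of the receptor genes are shown because Mitf binds E-box letters such as CATGTG and CACGTG. RefSeq promoter windows (GRCm38.p6) were found for 8 of 8 members, and the 250 bases before the start site were searched for CATGTG on both strands (CACATG on the other) and for CACGTG, which reads the same on both. Mc1r was the only member with CATGTG, 51 bases before the RefSeq start on the gene's strand and 62 bases before it on the other. Met was the only one with CACGTG, 126 bases before the RefSeq start, which places it inside the first exon of the GENCODE gene, since that gene starts earlier. Among 32851 windows of the same length 12.3% held CATGTG and 6.02% held CACGTG. With 1 of 8 members for each motif, the members cannot be told from other genes by these letters. Binding by Mitf was not tested. Kit and Ednrb, the most abundant receptors, held neither motif, which says only that these letters are not in this window. Bases outside GENCODE exons are printed 5′ to 3′ on the gene's strand, with E-box letters in capitals, for Mc1r (chr8:123406832-123407081), for Kit (chr5:75574737-75574915) and for Ednrb (chr14:103843702-103843951, minus strand). The Ednrb window lies in the first intron of the GENCODE gene, whose start is upstream of the RefSeq one.
Mc1r: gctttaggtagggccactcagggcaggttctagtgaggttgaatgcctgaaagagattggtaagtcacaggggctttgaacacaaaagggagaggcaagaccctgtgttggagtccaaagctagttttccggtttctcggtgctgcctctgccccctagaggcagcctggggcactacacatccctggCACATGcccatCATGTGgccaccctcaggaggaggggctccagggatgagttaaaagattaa
Kit: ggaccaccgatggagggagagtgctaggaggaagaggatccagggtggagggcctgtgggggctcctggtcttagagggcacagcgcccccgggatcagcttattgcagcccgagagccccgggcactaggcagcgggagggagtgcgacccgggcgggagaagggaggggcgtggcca
Ednrb: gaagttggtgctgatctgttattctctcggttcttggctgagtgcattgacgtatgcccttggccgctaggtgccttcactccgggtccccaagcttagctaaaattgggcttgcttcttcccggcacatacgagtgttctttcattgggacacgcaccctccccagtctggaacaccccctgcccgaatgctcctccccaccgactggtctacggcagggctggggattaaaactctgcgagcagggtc

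Met (ENSMUSG00000009376, chromosome 6, 17463800 to 17573980, plus strand, up to 22 exons) had 136, 153, 132 and 98.4 CPM in control libraries. In Bmi1-deleted libraries it had 88.1, 86.7, 90.9 and 85.4 CPM. As with Ednrb, every Bmi1-deleted library lay below every control in CPM, and the Bmi1-deleted values were nearly equal, with means of 129.9 ± 23.0 and 87.8 ± 2.34 CPM, 67.6% of control (exact two-sided permutation p = 0.0286). On the deposited TPM, which move with the share of Gm23935, the Met groups overlapped (4.47 to 13.1 against 3.44 to 7.3 TPM, exact two-sided permutation p = 0.171). In CPM the margin between the groups was the gap from 90.9 to 98.4 CPM, set by Bmi1-deleted 3 and control 4. The log2 change was −0.57 (SE 0.14, edgeR adjusted p = 0.166). Met fell with the block (−0.55, SE 0.12, adjusted p = 0.0204), and of the blocked fits that left out 1 pair it passed only without replicate 4 (highest adjusted p of the others 0.194). The fibroblast covariate gave −0.66 (adjusted p = 0.198) without the block and −0.31 (adjusted p = 0.62) with it.

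Replicates 1 and 2 and replicates 3 and 4 were also taken as separate sets, since in each group their counts were the closest pairs, although no label names a batch. In replicates 1 and 2 alone the edgeR log2 changes were −0.90 for Kit (adjusted p = 0.0133), −0.76 for Ednrb (0.0342), −1.63 for Mc1r (0.0369) and −0.73 for Met (0.0314). In replicates 3 and 4 alone they were −0.43, −0.62, −1.11 and −0.40, with adjusted p of 0.244 to 0.56. All 4 receptors were lower in both sets. The sets are parts of the same libraries as the main fit, so this is no independent repeat of it. Whether the sizes differ between the sets was not tested. The fibroblast markers differed most between the groups in replicates 1 and 2.

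**Figure D3:**
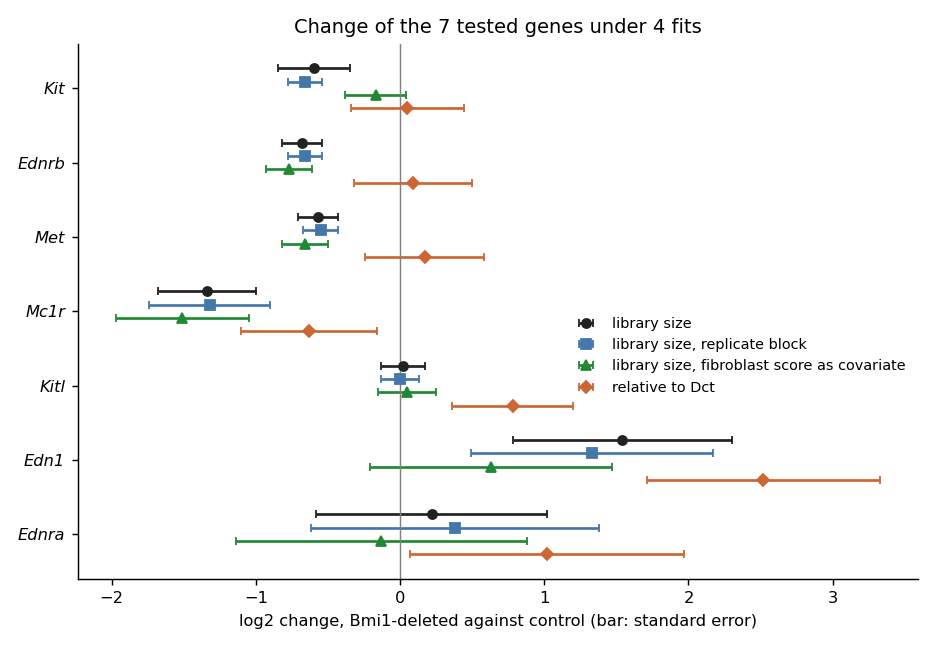
Log2 change of the 7 tested genes, Bmi1-deleted against control (horizontal axis; bars are standard errors), in the edgeR fit on library size (black), with the replicate block (blue), with the fibroblast score as covariate (green) and relative to Dct (orange). Kit moves from −0.60 to −0.17 with the covariate while Ednrb goes from −0.68 to −0.77, and relative to Dct both lie near 0. With the covariate and the block, not drawn, Kit had −0.59 and Ednrb −0.99. The fibroblast score moved with the genotype, and the difference between the genes was not tested.

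Relative to Dct, the level of Kit, Ednrb and Met did not differ between the genotypes by more than the spread. Kit had 326, 294.5, 261 and 269.8 counts per 1000 Dct counts in control and 357, 280.5, 290.1 and 265 in Bmi1-deleted libraries. Relative to their means these are the narrowest ranges of the tested members, and they overlap (log2 change 0.05, 95% interval −0.73 to 0.83, adjusted p = 0.924 by edgeR with the Dct count as offset). Mitf had 183 ± 8.27 and 184 ± 9.42 counts per 1000 Dct counts (n = 4), a smaller spread than that of Kit. Ednrb had 144, 179, 80.9 and 101 in control and 192, 177, 91.7 and 76.1 in Bmi1-deleted libraries. In both groups replicates 1 and 2 were high and 3 and 4 low, so Ednrb did not keep a constant proportion to Dct between libraries (log2 change 0.09, 95% interval −0.73 to 0.90, adjusted p = 0.872). Met showed the same order, with 35.7, 38.2, 23.1 and 15.3 in control and 42.1, 44.1, 22.2 and 18 in Bmi1-deleted libraries (0.17, adjusted p = 0.748).

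**Figure D4:**
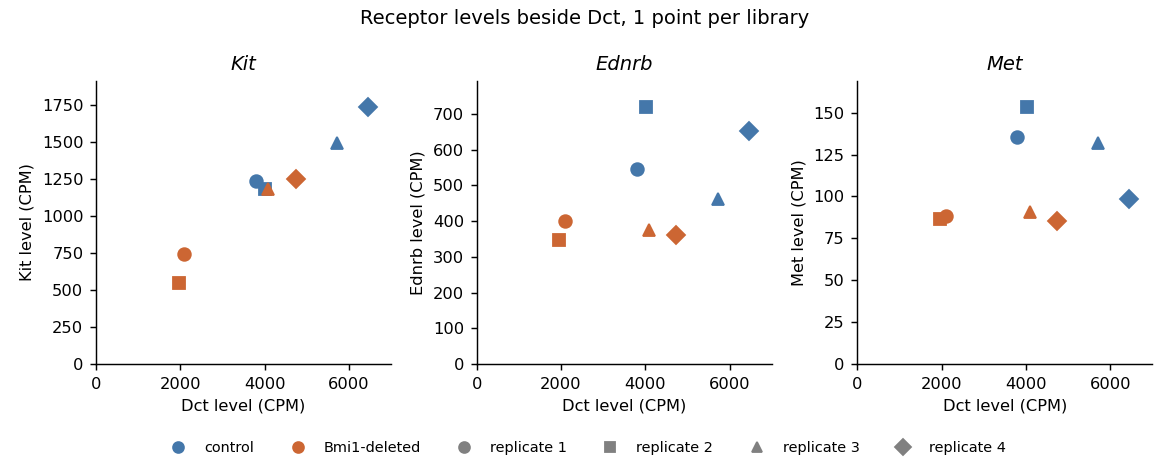
Level of Kit, Ednrb and Met (vertical axes, CPM) against that of Dct (horizontal axis, CPM), 1 point per library, control in blue and Bmi1-deleted in orange, with marker shapes for replicate numbers. Kit is lowest in the 2 libraries with the least Dct and highest in the 2 with the most, while the Bmi1-deleted libraries hold Ednrb at 348 to 401 CPM and Met at 85.4 to 90.9 CPM over Dct levels from 1966 to 4734 CPM.

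Mc1r had 5.85, 10.3, 2.98 and 6.49 counts per 1000 Dct counts in control and 5.48, 4.65, 4.71 and 1.80 in Bmi1-deleted libraries. The groups overlapped (log2 change −0.63, 95% interval −1.58 to 0.33, edgeR adjusted p = 0.315). Kitl had 16.1, 17.5, 12.9 and 9.82 in control and 25.5, 38, 20.3 and 13 in Bmi1-deleted libraries, higher in 4 of 4 pairs (0.78, SE 0.42, adjusted p = 0.215). With the replicate block Kitl passed relative to Dct (0.71, adjusted p = 0.00291), as did Edn1 (2.06, adjusted p = 0.013), both higher, but 48.7% of all genes were higher by this fit and 0.15% lower (48.8% in all), and the median of all tested genes relative to Dct was 0.77. Kitl therefore stood where most genes stood on this scale, and Kit, Ednrb, Met and Mc1r stood below that median. Without the block 0 of 7 members passed relative to Dct (24% of all genes and 1 member, Edn1, had an unadjusted p under 0.05), against 0.175% of all genes, 0.169% higher and 0.00625% lower. None of the 7 tested members had groups that did not overlap relative to Dct, against 7.55% of all genes (7.47% higher).

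**Figure D5:**
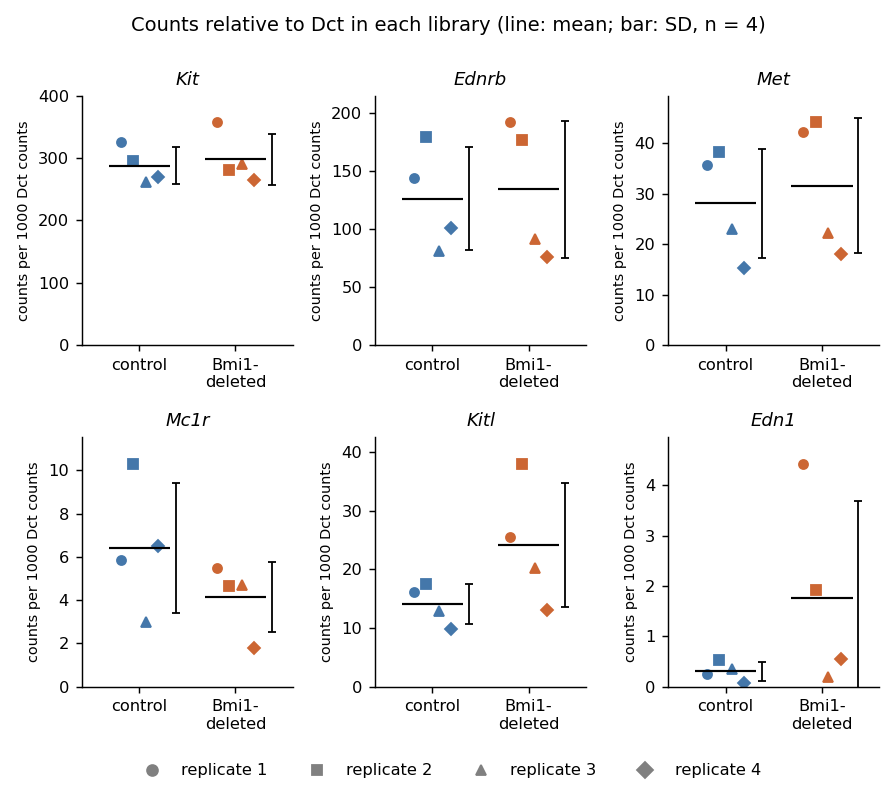
Counts of 6 members per 1000 Dct counts (vertical axes, each from 0) in control (blue) and Bmi1-deleted (orange) libraries; shapes are replicate numbers, lines means and bars SDs, not drawn below 0. Kit stays between 261 and 357 in all libraries, and Ednrb and Met are higher in replicates 1 and 2 of both groups.

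Genes that carry the signals of these receptors had median changes near 0. Beside the counts that follow, 8.27% of all tested genes had an unadjusted p under 0.05, 1.03% passed by DESeq2 and 2.41% passed with the block. Among 24 tested genes of the Kit pathway 0 passed by edgeR or by DESeq2, 1 had an unadjusted p under 0.05, and the median log2 change was −0.02. The abundant members were the kinase subunit gene Pik3r1 (256 ± 22.7 and 261 ± 20.1 CPM, n = 4), the Src family kinase Fyn (176 ± 21.9 and 192 ± 9.74 CPM) and the adaptor Crk (154 ± 17.8 and 152 ± 9.53 CPM). Of 22 tested genes of the endothelin pathway 0 passed by edgeR and 1 by DESeq2, 5 had an unadjusted p under 0.05, and the median was 0.07. With the block Ece1, the enzyme that cuts endothelins from their precursors, rose from 171 ± 30.4 to 274 ± 52.6 CPM (log2 change 0.68, adjusted p = 0.00219; 0.144 without the block by edgeR). Itpr2, a calcium channel gene downstream of such receptors, fell with the block from 112 ± 16.8 to 76.3 ± 13.8 CPM (−0.56, adjusted p = 0.0174; 0.272 without the block by edgeR). The abundant Itpr3, Gnai2 and Gna13 had changes of 0.25, −0.11 and −0.40 and did not pass with or without it.

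Of 21 tested melanocortin pathway genes 0 passed by edgeR or DESeq2, 4 had an unadjusted p under 0.05, and the median was 0.00. Gnas, the G protein subunit that couples Mc1r to adenylyl cyclase, had 537.5 ± 77.5 and 481 ± 14.4 CPM, and the kinase subunit gene Prkar1a had 396 ± 20.7 and 396 ± 16.8 CPM. Atrn, which acts with the agouti protein, had 287 ± 10.6 and 262 ± 34.8 CPM. With the block 1 gene rose, Cpe, a peptide-processing enzyme (0.54, adjusted p = 0.00626; 0.369 without the block by edgeR). Of 19 tested Met pathway genes 0 passed by edgeR or DESeq2, 5 had an unadjusted p under 0.05, and the median was 0.08. The integrin genes Itga6 (0.58, adjusted p = 0.00252) and Itgb4 (0.57, adjusted p = 0.0053) rose with the block and not without it (0.437 and 0.34 by edgeR). Itgb4 is also a keratinocyte marker. Stat3 (0.01) and Ptprj (−0.21) did not pass. The ligand gene Hgf was too low to test, at 1.19 ± 0.900 and 0.610 ± 0.942 CPM. Of 11 genes that report ERK activity, the output that Kit and Met share, 0 passed by edgeR or DESeq2 and 1 had an unadjusted p under 0.05. Their median was −0.02. Dusp6, a phosphatase of ERK, had 204.5 ± 29.1 and 222 ± 29.6 CPM, Spred1 had a change of −0.32, and Dusp4 fell with the block (−0.53, adjusted p = 0.0128; 0.84 without it by edgeR).

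Several members are also made by other skin cells, so markers of those cells are given beside them. Mast cells express Kit strongly. Of 13 mast cell markers 5 to 11 had 0 counts in a given library, among them Tpsab1, Mcpt1 and Mcpt2 in every library, and their summed level was 1.02 to 18.1 CPM in control and 11.8 to 43.1 CPM in Bmi1-deleted libraries. Of the 4 tested, 0 passed by edgeR and 1 by DESeq2, and Gata2, a factor that other cells also express, rose with the block (2.41, adjusted p = 0.0053). Gata2 had 2.34 ± 1.41 and 11.5 ± 3.87 CPM, the highest mean of the list in Bmi1-deleted libraries. The other tested markers, Mcpt4, Cpa3 and Hdc, had log2 changes of −0.11, 0.24 and 0.79 and did not pass with or without the block. Keratinocyte markers, of a cell type that makes Kitl and Edn1, summed to 2638 to 2988 CPM in control and 2188 to 4254 CPM in Bmi1-deleted libraries. Mural cell markers, of a cell type that uses Ednra, summed to 787 to 964.5 CPM in control and 1019 to 1230.1 CPM in Bmi1-deleted libraries, and Schwann cell markers to 3136 to 5291 and 5307 to 7107 CPM, so that for both lists every Bmi1-deleted library lay above every control. Most of the mural sums came from Cspg4 (501 ± 71.9 and 543.5 ± 94.6 CPM) and Mcam (288 ± 28.2 and 463 ± 41 CPM), while Acta2, Pdgfrb and Rgs5 had means of at most 10.4 CPM in either group. Most of the fibroblast sums came from Col3a1, Col1a2 and Col1a1, and Pdgfra stood at 3.1 ± 0.673 and 7.07 ± 6.77 CPM. Immune cell markers summed to 52.4 to 95.9 and 89.9 to 139.3 CPM. Of the 15 tested melanocyte markers 0 passed by edgeR and 3 by DESeq2, with a median of −0.67, and 9 fell with the block. Of the 15 tested fibroblast markers 0 passed by edgeR and 4 by DESeq2, with a median of 0.96, and 6 rose with the block. Over all tested genes DESeq2 called 1.03%, and with the block 1.71% rose and 0.706% fell. The part of these cells in the receptor levels was not tested. The fibroblast covariate above cannot give that part, because its score moved with the genotype. The score was 4.51 to 5.26 log2 CPM in control and 4.58 to 6.6 log2 CPM in Bmi1-deleted libraries.

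Genes whose levels were most like those of a member over the 8 libraries were sought among 9185 genes of at least 10 CPM. For Kit these were Mgat5 (Pearson r = 0.99), Pde1c (0.983) and Arhgap29 (0.98), and Dct itself had 0.973. After centring within genotype the first 3 kept 0.983, 0.971 and 0.966. For Ednrb they were Hmox2 (0.983), Clock (0.962) and Ankrd13c (0.947), with 0.485 for Dct, and for Met they were Dnm1l (0.947), Tnpo1 (0.938) and Ankfy1 (0.938), with 0.355 for Dct. Hmox2 was also among the nearest of Mc1r (0.955), with Ccdc88a (0.967) and Nhsl1 (0.964). For Kitl they were Gm16973 (0.941), LTO1 (0.9) and Senp7 (0.896). After the same centring the Ednrb genes had 0.95, 0.833 and 0.808 and the Met genes 0.792, 0.871 and 0.815, in the order named. Hmox2, Ccdc88a and Nhsl1 had 0.878, 0.959 and 0.905 with Mc1r, and the Kitl genes had 0.97, 0.906 and 0.906. These correlations are picked as the highest of many and share their libraries and scaling, so they are a description and carry no p.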

How the data were processed

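Libraries were made from 1 ng of RNA of over 10000 sorted cells with a stranded total RNA kit, per the labels' protocols, with 15 cycles of PCR before and 15 after ribosomal removal. The authors deposited estimated counts per Ensembl gene as whole numbers, and log2 values of TPM plus 1. Salmon 1.2.1 and build mm10 are named in the submitters' processing notes; annotation, strand setting and rounding are unknown here. GENCODE M21 gave symbols for 54096 of 54418 identifiers, and coordinates. The counts include PCR copies, so floors cover counting error only.

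Counts were filtered (filterByExpr), scaled by TMM and tested with edgeR 4.0.16 (quasi-likelihood, robust, two-sided, R 4.3.3) on all 8 libraries, with Benjamini-Hochberg adjustment over 16011 genes and a threshold of 0.05. For levels relative to Dct the Dct count of each library replaced its size. Single values were compared by exact permutation over 70 assignments. The count and offset fits were tested on simulated data. Alternatives were DESeq2 1.42.0, limma 3.58.1 on log2 values, RLE scaling, other filters, a fibroblast score of 15 genes and left-out libraries. After centring within genotype, libraries of equal replicate number, as given in the titles, correlated at 0.124 to 0.186 across genes, all above 0.1. The numbers were therefore taken as pairs, and blocked values stand beside results whose call they change. Correlations between unlike numbers were not examined and no label gives a pairing, so the pairing is an assumption. Replicates of 1 group differed by 12.2 to 38.2 times counting variance (chi-square per degree of freedom), so none was a duplicate.

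The members and lists were chosen with earlier results of these data known. Named genes are the members, Bmi1, Dct and Mitf; in each pathway list, those that passed in either fit and the 3 highest in control; and the 3 nearest genes of each member of at least 10 CPM. Further genes are markers or ligands named after their values were seen.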

Additional observations from a re-analysis of the deposited data

Results flagged for a closer look

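Edn3 in Bmi1-deleted library 2 stood apart from the other libraries of its group, at 1.49 CPM against 0 to 0.227 CPM, and at 0.758 counts per 1000 Dct counts against 0 to 0.0479. It rests on 15 counts. Chance alone is taken to mark about 1 in 20 groups this way, and 30 groups of values were examined. That rate was not checked for counts as sparse as these, and both flagged values come from the same 15 counts.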

How the results depend on the processing

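Over the alternatives not taken relative to Dct, Kit, Ednrb, Mc1r and Met were lower and Edn1 higher in Bmi1-deleted libraries each time, while Kitl and Ednra took both signs. Relative to Dct, Kit, Ednrb and Met took both signs, Mc1r was lower in all but 1, and Kitl, Edn1 and Ednra were higher in all. With the replicate block 273 genes were higher and 113 lower (14 and 1 without it), and Kit (−0.66), Ednrb (−0.66) and Met (−0.55) passed; relative to Dct 7791 and 24 passed, with Kitl (0.71) and Edn1 (2.06). The block changed no other member's call. DESeq2 gave 110 and 48 genes with Ednrb (−0.68), Mc1r (−1.34) and Met (−0.57); no filter on low counts gave 259 and 121 with Ednrb (−0.68), Mc1r (−1.34) and Met (−0.56). RLE scaling gave 3 lower genes and a minimum of 10 CPM 2 (272 higher relative to Dct). Deposited log2 TPM gave 3 higher genes, Kitl −0.17 and Ednra −0.01; minus Dct it gave 1902 higher and 0 lower genes, Edn1 1.23 (passed) and Mc1r 0.01. The fibroblast score gave 2 lower genes and Ednra −0.13, and with the block 77 higher and 26 lower genes. Replicates 1 and 2 alone gave 83 and 73 genes, Kit −0.90, Ednrb −0.76, Mc1r −1.63 and Met −0.73 (all passed) and Kitl −0.04; replicates 3 and 4 alone gave 6 lower genes and Ednra −0.01. With 5 pigment genes as denominator 0 genes were lower, and limma on log2 CPM minus Dct gave 42 higher. The cause of these differences was not tested.

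Leaving out 1 library gave 8 to 40 higher and 0 to 5 lower genes, and 0 members passed; the range was −0.78 to −0.42 for Kit, −0.79 to −0.58 for Ednrb, −1.66 to −1.15 for Mc1r, −0.68 to −0.47 for Met, −0.10 to 0.12 for Kitl (lower without control 1, −0.02, or 4, −0.01, or Bmi1-deleted 2, −0.04, or 3, −0.10) and −0.21 to 0.57 for Ednra (−0.10 without control 4). Relative to Dct it gave 9 to 3660 higher and 0 to 9 lower genes, most without Bmi1-deleted 4; Edn1 (1.52 to 2.94) passed without Bmi1-deleted 3 (2.91) or 4 (2.83), and ranges were −0.05 to 0.12 for Kit, −0.14 to 0.30 for Ednrb (−0.08, −0.01 and −0.07 without control 3 or 4 or Bmi1-deleted 2), and −0.03 to 0.37 for Met. Blocked fits without replicates 1, 2, 3 and 4, chosen after seeing the data as was the covariate with the block, gave 264, 89, 153 and 124 higher and 87, 24, 85 and 65 lower genes; those that passed were Kit (−0.64, −0.77 and −0.73 without 1, 3 and 4), Ednrb (−0.74 and −0.79 without 1 and 3), Mc1r (−1.82 without 3) and Met (−0.67 without 4). Ednra was −0.15 and −0.19 without 1 and 4, and Kitl −0.03 and −0.06 without 2 and 3. Depth limits Ednra, Edn1 and Edn3, with at most 84 counts in a library.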
